A study of Mus musculus with 12 samples.

Results

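The antioxidant, glutathione and metal defence genes described here are 37 genes chosen by function, out of 55315 genes in a table of read counts from sorted keratinocytes of mouse skin wounds. They comprise 4 genes of glutathione synthesis and recycling, 4 glutathione peroxidases, 4 glutathione transferases, 3 thioredoxin-system genes, 6 peroxiredoxins, 4 genes of superoxide and catalase defence, 8 genes of the NRF2 pathway and related oxidoreductases, and 4 metal-binding genes. All 37 had enough counts to be tested. The choice was made with earlier results of these data known, so call shares set beside all genes are descriptive only. The 12 libraries form 4 groups of 3: A5-positive and A5-negative cells of RORγt-deficient mice, and A5-positive and A5-negative cells of wild-type (WT) mice. A5 is integrin alpha5, which the submitters use to mark cells of the migrating tongue, while A5-negative cells are labelled as wound edge. All mice, WT included, were wounded 3 days before harvest; a skin ring of 0.25 mm beside the wound was digested, and each library pools 2 or 3 mice. Live Epcam-positive, integrin alpha6-positive cells were sorted, leaving out cells with CD45, CD31 or CD117. Sample titles name the RORγt-deficient animals as a GFP knock-in, and the labels give no age or sex of the mice.

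Cells neutralise hydrogen peroxide and lipid peroxides with glutathione, which glutathione peroxidases spend and glutathione reductase restores, and with thioredoxin, which serves the peroxiredoxins. The transcription factor NRF2, encoded by Nfe2l2 and held back by KEAP1, switches on many of these enzymes through antioxidant response elements, and NRF2 is known to act in keratinocytes at wound edges. Metallothioneins bind zinc and copper and are switched on by MTF1 through metal response elements, and ferritin stores iron. RORγt is a transcription factor of lymphocytes that make interleukin-17, and keratinocytes are a known target of that cytokine.

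Promoter sequences from RefSeq (GRCm38.p6) were matched for 31 of the 37 members, and the windows of 4 members are shown. Txnrd1, Gclm and Mt2 hold these elements and passed in comparisons below, only in fits with the library number as a block. Mt1, which passed in none, is shown as the neighbouring metallothionein gene of Mt2. Each line gives the 250 bases before the annotated start, 5′ to 3′ on the strand of the gene, which is the plus strand for all 4. Capitals mark TGACNNNGC, the core of the antioxidant response element on either strand, in Txnrd1 (chr10:82858956-82859205, 1 of 3 annotated starts) and Gclm (chr3:122245307-122245556). In Mt2 (chr8:94172368-94172617) and Mt1 (chr8:94178839-94179088) capitals mark TGCACNC or TGCGCNC, the core of the metal response element on either strand. These letters can overlap between the motifs, as they do in Gclm. The metal cores of Gclm and an antioxidant core of Mt2, 79 bases before its start, are left unmarked.
Txnrd1: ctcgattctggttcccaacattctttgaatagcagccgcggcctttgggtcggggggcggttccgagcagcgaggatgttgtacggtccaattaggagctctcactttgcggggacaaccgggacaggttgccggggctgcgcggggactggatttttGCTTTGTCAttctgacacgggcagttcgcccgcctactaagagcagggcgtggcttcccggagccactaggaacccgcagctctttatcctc
Gclm: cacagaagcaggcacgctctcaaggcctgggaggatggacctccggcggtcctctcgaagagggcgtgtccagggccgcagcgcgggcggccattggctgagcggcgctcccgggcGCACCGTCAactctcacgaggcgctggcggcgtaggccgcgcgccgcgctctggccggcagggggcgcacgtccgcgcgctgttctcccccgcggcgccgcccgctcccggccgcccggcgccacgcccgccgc
Mt2: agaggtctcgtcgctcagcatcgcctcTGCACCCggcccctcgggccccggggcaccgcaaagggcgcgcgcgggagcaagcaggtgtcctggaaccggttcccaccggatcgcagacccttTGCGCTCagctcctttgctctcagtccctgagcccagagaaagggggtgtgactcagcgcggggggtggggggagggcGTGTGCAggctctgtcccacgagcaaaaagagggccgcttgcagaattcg
Mt1: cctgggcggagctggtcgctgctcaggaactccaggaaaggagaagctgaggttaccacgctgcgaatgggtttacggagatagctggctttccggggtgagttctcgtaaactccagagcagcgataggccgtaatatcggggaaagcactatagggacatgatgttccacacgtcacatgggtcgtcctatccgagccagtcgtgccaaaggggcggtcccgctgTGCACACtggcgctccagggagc

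In windows of 300 bases, from 250 before to 50 after the start, the antioxidant core was present in 7 of the 31 members (22.6%), against 14% of all 27025 genes. These were Txnrd1, Gclm and Mt2, and also Nfe2l2, Srxn1, Prdx1 and Sod1, which passed in no comparison below. The metal core was present in 6 of the 31 members (19.4%), against 28.2% of all genes. At least 3 metal cores stood in the windows of Mt2, Mt1 and Gclm, a number that 1.97% of all promoter windows reach. A match is a stretch of letters and not a measured binding site.

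Libraries held 29259516 to 74474252 counts, 14946 to 17538 genes had at least 10 counts, and the 37 members took 0.411% to 0.672% of a library's counts. Itga5 followed the sort, at 107 to 137 CPM (counts scaled to library size and TMM factor) in RORγt-deficient A5-positive libraries and 47.4 to 61.2 CPM in RORγt-deficient A5-negative ones. Keratinocyte markers (10 genes) summed to 37198 to 81842 CPM over all libraries. A list of 17 fibroblast markers summed to 11648 to 18804 CPM in RORγt-deficient A5-positive and 860 to 2012 CPM in RORγt-deficient A5-negative libraries, and to 6940 to 10420 CPM in WT A5-positive and 1594 to 2253 CPM in WT A5-negative libraries. None of the 17 was at 0 in all libraries, and 13 of the 17 passed the test as higher in A5-positive cells in each genotype. Of all genes, 4.56% passed as higher in RORγt-deficient and 3.12% in WT mice. A list of 20 differentiating keratinocyte markers summed to 5921 to 8308 CPM in RORγt-deficient A5-positive and 9781 to 14314 CPM in RORγt-deficient A5-negative libraries. It summed to 6477 to 13737 CPM in WT A5-positive and 9011 to 15726 CPM in WT A5-negative libraries. In each genotype 1 of the 20 passed as lower in A5-positive cells (0.965% of all genes in RORγt-deficient and 0.33% in WT mice). With the library number as a block, 8 passed as lower in RORγt-deficient mice (7.54% of all genes). In WT mice 7 then passed as lower (5.59% of all genes) and 1 as higher. A set of 17 macrophage markers, which leaves out the abundant Apoe, summed to 114 to 291 CPM in RORγt-deficient A5-positive and 125 to 764 CPM in RORγt-deficient A5-negative libraries, and to 127 to 211 CPM in WT A5-positive and 117 to 1717 CPM in WT A5-negative libraries. The part of these lists in the A5 changes below was not tested. In pooled RNA, fewer cells of a type and less RNA per cell cannot be told apart. Members tended to be high in the same library, by share of total counts without the TMM factor. Within RORγt-deficient A5-positive, WT A5-positive and WT A5-negative groups, 23, 24 and 27 of the 37 members were highest in library 1, while in RORγt-deficient A5-negative cells 23 were highest in library 3.

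**Figure D1:**
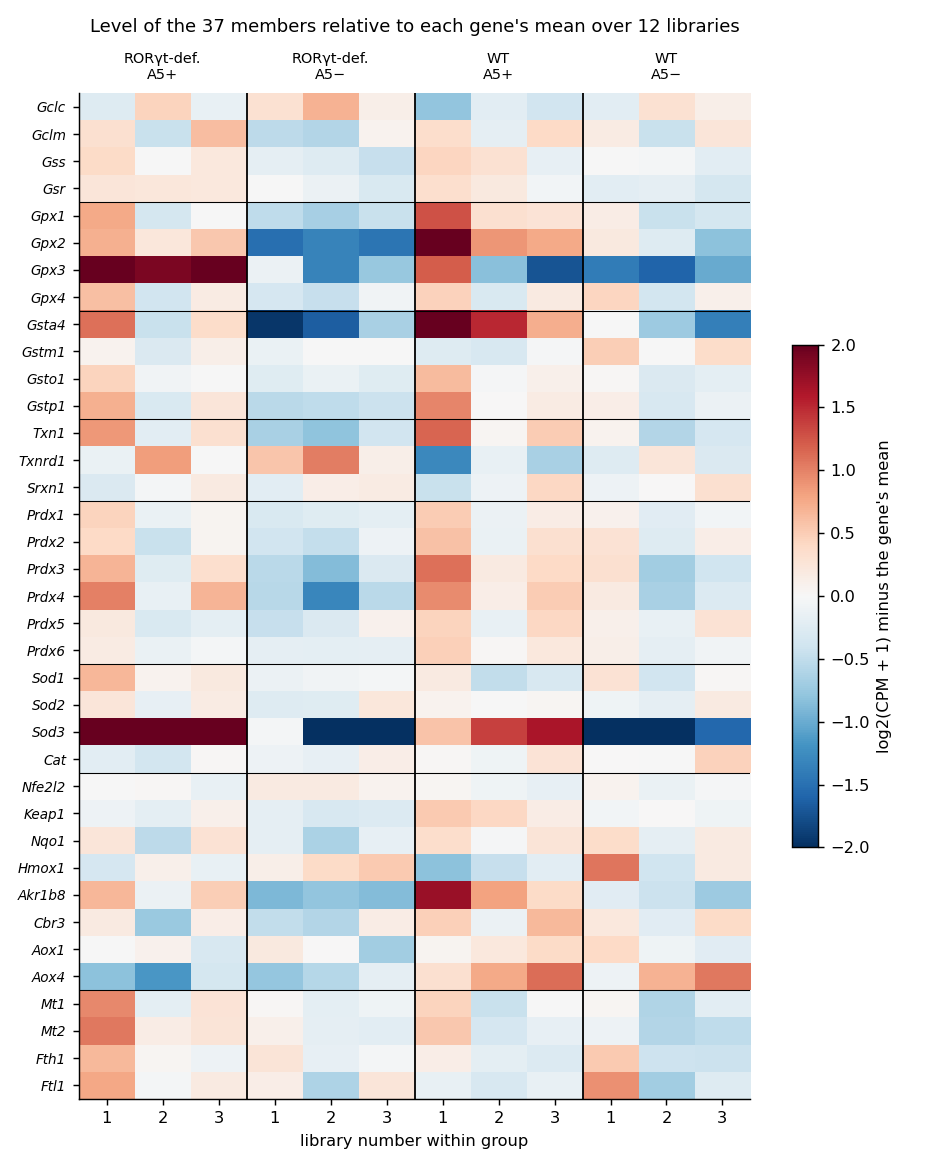
Colour gives log2(CPM + 1) minus the gene's mean over the 12 libraries, with members in rows (grouped by role) and libraries in columns (3 per group); colours saturate at 2 either side of 0. Gpx2, Gsta4, Gpx3 and Sod3 differ most between A5-positive and A5-negative columns. Aox4 is lower in all RORγt-deficient than in all WT columns of the same fraction. Gpx3 is higher in all RORγt-deficient A5-positive than in all WT A5-positive columns.

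Compared per kilobase of exon on the TPM scale, the members spanned a wide range. Gpx1, the cytosolic glutathione peroxidase, was the most abundant, with a mean level of 1456 TPM over the 12 libraries, followed by the ferritin chains Ftl1 at 775 TPM and Fth1 at 759 TPM, and by Prdx1 at 604 TPM and the metallothionein Mt1 at 419 TPM. The means of Ftl1 and Fth1 differed by less than the spread between libraries. At the other end stood Gpx2 at 8.98 TPM, Sod1 at 6.76 TPM, and the aldehyde oxidases Aox4 at 3.3 TPM and Aox1 at 0.285 TPM. The lengths join all annotated exons of a gene: 3970 bases for Sod1 and 3222 for Gpx2, against 641 and 1067 bases in their longest protein-coding transcripts. A longer length lowers the TPM, so the place of Sod1 and Gpx2 depends in part on this choice. The low level of Sod1 carries a further limit, since 72.5% of its transcript matches a copy elsewhere at 95% identity or more. Copies of that kind cover at least 25% of the transcript in 9 members (Gpx2, Gpx4, Gstm1, Gstp1, Txn1, Prdx1, Prdx2, Sod1 and Ftl1), where counting may have dropped or moved reads. The copies themselves held at most 4.61% of a member's counts. In 8 members exon bases overlap another gene, most in Mt2 (73.5% of its exon bases) and Ftl1 (34.6%).

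A5-positive cells were compared with A5-negative cells to see which defence genes differ in the migrating front. In RORγt-deficient mice 5 of 37 members rose and none fell (13.5%, against 5.52% of all 16677 genes, in either direction): Gpx2, Gpx3, Prdx4, Sod3 and Akr1b8. In WT mice 4 rose and none fell (10.8%, against 3.45% of all genes): Gpx2, Gsta4, Sod3 and Akr1b8. Gpx2, Sod3 and Akr1b8 rose in both, 60% of the RORγt-deficient list and 75% of the WT list. Libraries with the same number vary together, and with the number as a block 13 members rose in RORγt-deficient mice (35.1%, against 17.6% of all genes), and 10 rose and 3 fell in WT mice (35.1%, against 14.4%). The median change over the members was 0.37 (log2) in RORγt-deficient and 0.26 in WT mice, against -0.00033 and 0.025 over all genes, and 30 and 27 of the 37 lay above 0. Levels of A5-positive and A5-negative libraries did not overlap for 19 members in RORγt-deficient mice (25.6% of all genes) and for 8 in WT mice (25%). The 2 comparisons share no library, and the test of the difference between them, given with the genotype results, passed for no member.

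Of the 4 glutathione peroxidases, Gpx2 and Gpx3 rose in RORγt-deficient mice and Gpx2 in WT mice. Gpx2 (chr12:76792333-76795554; gene positions are from GENCODE M21 on GRCm38), the gastrointestinal-type peroxidase, had 11.6, 8.03 and 10.1 CPM in RORγt-deficient A5-positive libraries, against 1.7, 2.06 and 1.81 CPM in RORγt-deficient A5-negative libraries. In WT mice it had 31.1, 13.3 and 12 CPM in A5-positive and 7.81, 5.42 and 3.37 CPM in A5-negative libraries. In both genotypes all 3 A5-positive libraries lay above all 3 A5-negative ones. The change was 2.42 ± 0.40 (log2 ± SE, adjusted p = 0.00351) in RORγt-deficient mice, and held without each library in turn, and 1.76 ± 0.38 (adjusted p = 0.026) in WT mice. Leaving out A5-positive library 1 (adjusted p = 0.105) or A5-negative library 2 (0.0843) or 3 (0.122) removed the WT call, and with the block it held without each library.

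Gpx3, the secreted plasma peroxidase, had 33.1, 24.3 and 69.2 CPM in RORγt-deficient A5-positive libraries, against 5.33, 1.72 and 3.08 CPM in RORγt-deficient A5-negative ones. Its levels in WT mice were 14.9, 2.85 and 1.08 CPM in A5-positive and 1.61, 1.27 and 2.43 CPM in A5-negative libraries, which overlap. The change was 3.62 ± 0.81 (adjusted p = 0.0218) in RORγt-deficient mice and 1.85 ± 0.78 (adjusted p = 0.208) in WT mice. Leaving out RORγt-deficient A5-positive library 3 (adjusted p = 0.0896) or A5-negative library 2 (0.0967) or 3 (0.0903) removed the call, which held without each library with the block. Gpx1 passed with the block in both genotypes, by 0.66 ± 0.18 (adjusted p = 0.0291) in RORγt-deficient and 0.85 ± 0.18 (adjusted p = 0.013) in WT mice. Its levels were 1008, 467 and 593 CPM in RORγt-deficient A5-positive and 420, 376 and 436 CPM in RORγt-deficient A5-negative libraries, with 1442, 745 and 717 CPM in WT A5-positive and 659, 439 and 469 CPM in WT A5-negative libraries. Without the block it reached adjusted p = 0.191 and 0.142. The call ended without RORγt-deficient A5-positive library 1 or 3 or A5-negative library 1 (adjusted p up to 0.131), and in WT mice without A5-positive library 1 or A5-negative library 1 or 3 (up to 0.0652). Gpx4, which reduces lipid peroxides, passed in neither genotype, at 0.47 ± 0.27 and 0.06 ± 0.27.

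Sod3, the extracellular superoxide dismutase (chr5:52363791-52371418), had 76.1, 42 and 75.7 CPM in RORγt-deficient A5-positive libraries and 7.42, 0.286 and 0.254 CPM in RORγt-deficient A5-negative libraries. WT mice had 11.9, 21.3 and 25.8 CPM in A5-positive and 0.896, 0.198 and 1.91 CPM in A5-negative libraries. The groups did not overlap in either genotype, and the changes were 4.52 ± 1.03 (adjusted p = 0.0244) and 4.30 ± 1.07 (adjusted p = 0.0497). The first became 7.86 without RORγt-deficient A5-negative library 1, the only one of that group above 1 CPM, and its call ended without 4 of the 6 libraries, that is all but RORγt-deficient A5-positive library 2 and A5-negative library 1 (adjusted p up to 0.0749). In WT mice the call ended without any one of the 6 libraries (adjusted p 0.0831 to 0.132). With the block the calls were 4.81 ± 0.93 (adjusted p = 0.0065), which held without each library, and 4.60 ± 0.97 (0.0133), which ended without WT A5-positive library 2 or A5-negative library 1 or 2 (up to 0.0576). The fibroblast list given above was also higher in the A5-positive libraries of both genotypes, and its part in the changes of Sod3 and Gpx3 was not tested. In WT A5-positive libraries 1 to 3 that list summed to 6940, 9458 and 10420 CPM. Sod3 had the same order in those libraries, and Gpx3 the reverse order. In RORγt-deficient A5-positive libraries 1 to 3 the list summed to 18241, 11648 and 18804 CPM. Gpx3 had the same order there, while Sod3 was likewise lowest in library 2 but near equal in libraries 1 and 3. Sod1, Sod2 and Cat, which encodes catalase, stayed between -0.21 and 0.45 in both genotypes and passed no A5 test.

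**Figure D2:**
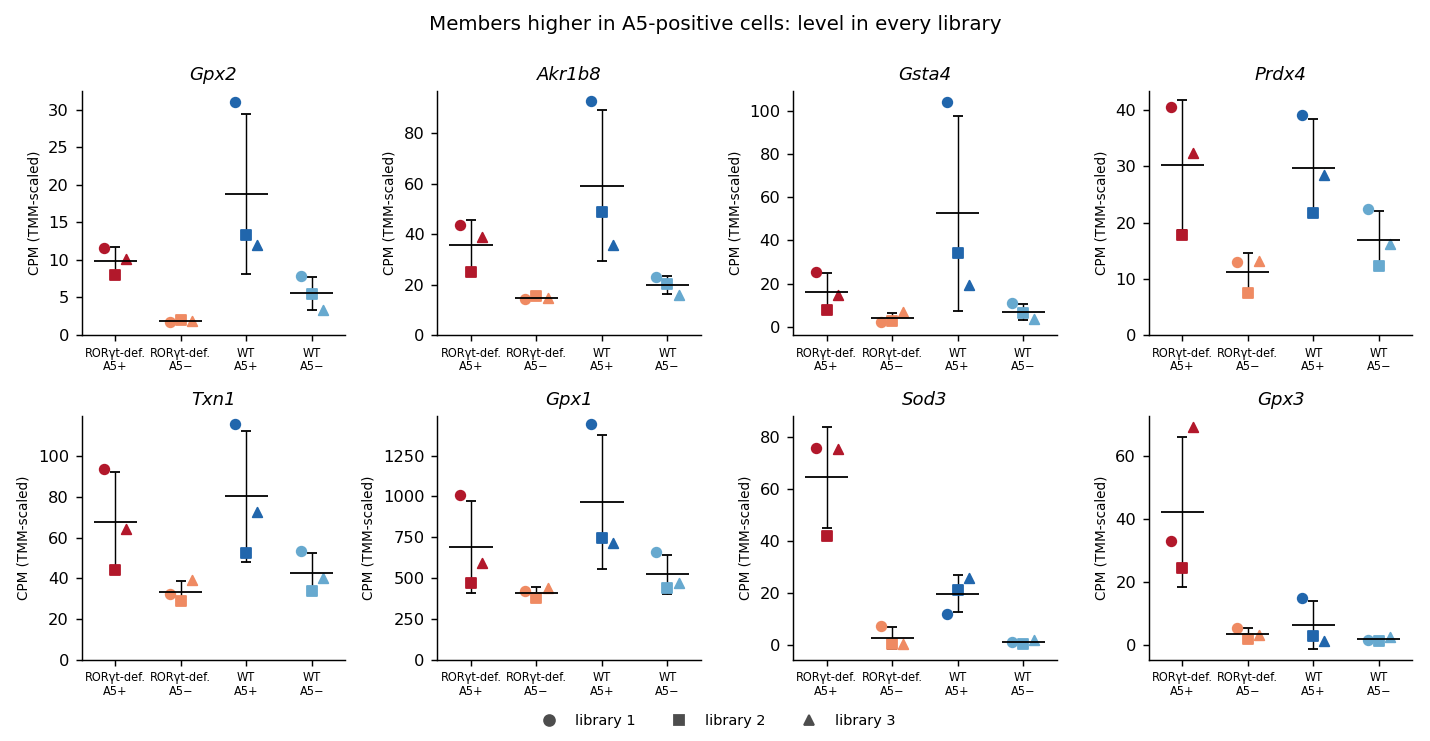
Each panel gives 1 member's level in TMM-scaled CPM in the 12 libraries, with symbols for the library number and the mean ± SD of 3 libraries in black. In all 8 panels the mean is higher in A5-positive than in A5-negative cells, and in the WT panels of Gpx2, Akr1b8 and Gsta4 library 1 stands above the other A5-positive libraries.

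Akr1b8, an aldo-keto reductase and known NRF2 target (chr6:34354119-34368463), had 43.7, 25.1 and 38.7 CPM in RORγt-deficient A5-positive libraries, against 14.3, 15.5 and 14.5 CPM in RORγt-deficient A5-negative ones. In WT mice it had 93, 48.8 and 35.9 CPM in A5-positive and 23.1, 20.2 and 16.1 CPM in A5-negative libraries. The ranges did not overlap in either genotype, at 1.28 ± 0.31 (adjusted p = 0.0321) and 1.58 ± 0.31 (adjusted p = 0.0185). The first call ended without any library but RORγt-deficient A5-positive library 2 (adjusted p up to 0.137), and with the block without A5-positive library 3 alone (0.0517). Leaving out A5-negative library 2 (0.0625) or 3 (0.101) removed the WT call, and with the block it held without each library. Akr1b8 shares 18.4% of its transcript with Akr1b10, whose counts were 10.8% of its own.

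Of the glutathione transferases, Gsta4, which conjugates the lipid peroxidation product 4-hydroxynonenal, had 25.5, 8.06 and 14.8 CPM in RORγt-deficient A5-positive and 2.18, 2.95 and 6.82 CPM in RORγt-deficient A5-negative libraries. WT mice had 104, 34.2 and 19.3 CPM in A5-positive and 11.2, 6.44 and 3.8 CPM in A5-negative libraries. The fractions did not overlap in either genotype. The change was 2.04 ± 0.67 (adjusted p = 0.107) in RORγt-deficient mice and passed in WT mice, at 2.87 ± 0.68 (adjusted p = 0.0406). The WT change became 1.88 without A5-positive library 1, and the call ended without each library but A5-positive library 3 (adjusted p up to 0.191); with the block it ended without A5-positive library 1 or 2 or A5-negative library 3 (up to 0.0679). Gstp1, the pi-class transferase, rose with the block in RORγt-deficient mice by 0.74 ± 0.20 (adjusted p = 0.0275), a call that ended without A5-positive library 1 or 3 or A5-negative library 1 or 3. It had 34.4, 16.5 and 24.6 CPM in A5-positive and 13.9, 14.2 and 15 CPM in A5-negative libraries. Gstm1, a mu-class transferase, fell with the block in WT mice by 0.49 on the log2 scale (SE 0.12, adjusted p = 0.0245), with 62, 59.2 and 73.4 CPM in A5-positive and 105, 73.8 and 96.1 CPM in A5-negative libraries. That call ended without A5-positive library 1 or 2 or A5-negative library 1 or 3 (adjusted p up to 0.117). Gsto1 passed in neither genotype.

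Of the thioredoxin system, Prdx4, the peroxiredoxin of the endoplasmic reticulum (chrX:155323918-155340754), had 40.5, 17.7 and 32.3 CPM in RORγt-deficient A5-positive libraries and 13.1, 7.38 and 13.2 CPM in RORγt-deficient A5-negative libraries. Its levels in WT mice were 39.1, 21.8 and 28.5 CPM in A5-positive and 22.5, 12.2 and 16.2 CPM in A5-negative libraries. The RORγt-deficient groups did not overlap, and the WT groups overlapped by A5-negative library 1. The change was 1.43 ± 0.35 (adjusted p = 0.0326) in RORγt-deficient and 0.81 ± 0.34 (adjusted p = 0.205) in WT mice. The first call ended without each library but RORγt-deficient A5-positive library 2 (adjusted p up to 0.151). With the block the changes were 1.40 ± 0.14 (adjusted p = 0.000134) and 0.82 ± 0.14 (0.00501), and both held without each library.

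Txn1, thioredoxin itself, rose with the block by 0.94 ± 0.18 (adjusted p = 0.00552) in RORγt-deficient and 0.88 ± 0.17 (adjusted p = 0.01) in WT mice. It had 93.8, 44.2 and 64.2 CPM in RORγt-deficient A5-positive and 32.4, 28.7 and 39.1 CPM in RORγt-deficient A5-negative libraries. In WT mice it had 116, 52.6 and 72.7 CPM in A5-positive and 53.4, 33.6 and 40 CPM in A5-negative libraries, so that only the RORγt-deficient groups did not overlap. Without the block its adjusted p was 0.0886 and 0.129, and the blocked WT call was lost when leaving out A5-positive library 1 (0.0545) or A5-negative library 3 (0.0657). Prdx3, the mitochondrial peroxiredoxin, rose with the block in RORγt-deficient mice by 0.88 ± 0.19 (adjusted p = 0.0117) and in WT mice by 0.87 ± 0.19 (adjusted p = 0.0155), with 21.5, 10.8 and 16.7 CPM in RORγt-deficient A5-positive and 8.6, 6.64 and 10.5 CPM in RORγt-deficient A5-negative libraries. In WT mice its levels were 28.9, 14.9 and 17.4 CPM in A5-positive and 16.4, 7.68 and 9.65 CPM in A5-negative libraries, which overlap by 1 library. The first call ended without RORγt-deficient A5-positive library 3 (0.0611), and the WT call without each library but A5-positive library 3 and A5-negative library 1 (up to 0.0935). Prdx1, Prdx2, Prdx5, Prdx6 and Srxn1, which encodes sulfiredoxin, lay between -0.09 and 0.39 in both genotypes and passed no A5 test. Txnrd1, thioredoxin reductase, fell with the block in WT mice by 0.58 on the log2 scale (SE 0.17, adjusted p = 0.0402), a call that ended without each library but A5-positive library 3 (up to 0.184).

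Glutathione synthesis and recycling gave smaller changes. Gsr, glutathione reductase, rose with the block by 0.38 ± 0.10 (adjusted p = 0.0239) in RORγt-deficient and 0.41 ± 0.10 (adjusted p = 0.0216) in WT mice. Its levels were 62.1, 61 and 60.7 CPM in RORγt-deficient A5-positive and 52, 48.1 and 41.8 CPM in RORγt-deficient A5-negative libraries, and 65.9, 59.4 and 49.9 CPM in WT A5-positive and 45.1, 45.9 and 40.4 CPM in WT A5-negative libraries, with no overlap. Its RORγt-deficient call ended without A5-positive library 3 or A5-negative library 2 or 3, and its WT call without each library but A5-positive library 3. Gss, glutathione synthetase, rose with the block in RORγt-deficient mice by 0.52 ± 0.13 (adjusted p = 0.0229), with 41.2, 31.1 and 36.3 CPM in A5-positive and 27.6, 26 and 22.4 CPM in A5-negative libraries, but held only without A5-positive library 2. Gclm, the modifier subunit of glutamate-cysteine ligase, rose with the block in the same mice by 0.51 ± 0.14 (adjusted p = 0.0298), with 99.2, 57.6 and 122 CPM in A5-positive and 54.8, 52.6 and 83.5 CPM in A5-negative libraries, which overlap; it held only without A5-positive library 2 or A5-negative library 2. Gclc, the catalytic subunit, moved the other way: it fell with the block in WT mice by 0.54 on the log2 scale (SE 0.12, adjusted p = 0.0185), with 53.8, 81.2 and 71.5 CPM in A5-positive and 81.1, 116 and 102 CPM in A5-negative libraries. It was lower in A5-positive cells in 3 of 3 numbered pairs in each genotype, and its WT call held only without A5-positive library 3 or A5-negative library 2.

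Among the metal genes, Mt2 rose with the block in RORγt-deficient mice by 0.59 ± 0.13 (adjusted p = 0.0118), with 104, 54.7 and 59.4 CPM in A5-positive and 53.1, 43.7 and 42.6 CPM in A5-negative libraries, a call that ended without library 1 of either fraction (0.0626 and 0.0517). The exons of Mt2 overlap those of the antisense gene Gm45774, and strand use in the counting is not known. Mt1, Fth1 and Ftl1 passed in neither genotype. Keap1, the NRF2 inhibitor, rose with the block in WT mice by 0.42 ± 0.12 (adjusted p = 0.0375), with 111, 103 and 85.4 CPM in A5-positive and 73.8, 77.2 and 72 CPM in A5-negative libraries, a call that held only without A5-positive library 3. Nfe2l2, Nqo1, Hmox1, Cbr3, Aox1 and Aox4 passed no A5 test. Hmox1, heme oxygenase, stood out in 1 library: WT A5-negative library 1 had 151 CPM, against 40 to 103 CPM in the other 11, and Ftl1 was highest there too, at 562 CPM. The 17 macrophage markers summed to 1717 CPM in that library and to 114 to 764 CPM in the others, and its part in these levels was not tested.

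Beside Hmox1 and Nfe2l2, the members with no call in any comparison had the following ranges over the 12 libraries. Levels ran from 45.2 to 95.1 CPM for Gpx4, from 188 to 357 CPM for Gsto1, from 96 to 175 CPM for Srxn1, and from 449 to 783 CPM for Prdx1, 102 to 213 CPM for Prdx2, 87.6 to 164 CPM for Prdx5 and 246 to 394 CPM for Prdx6. Sod1 lay at 5.37 to 13.2 CPM and Sod2, the mitochondrial superoxide dismutase, at 71 to 101 CPM. Mt1 lay at 101 to 299 CPM, Fth1 at 580 to 1219 CPM, Ftl1 at 184 to 562 CPM and Aox1 at 0.0634 to 1.25 CPM. The A5 change of Mt1 was 0.52 ± 0.29 in RORγt-deficient and 0.28 ± 0.29 in WT mice, and that of Ftl1 was 0.38 ± 0.37 and -0.36 ± 0.37.

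**Figure D3:**
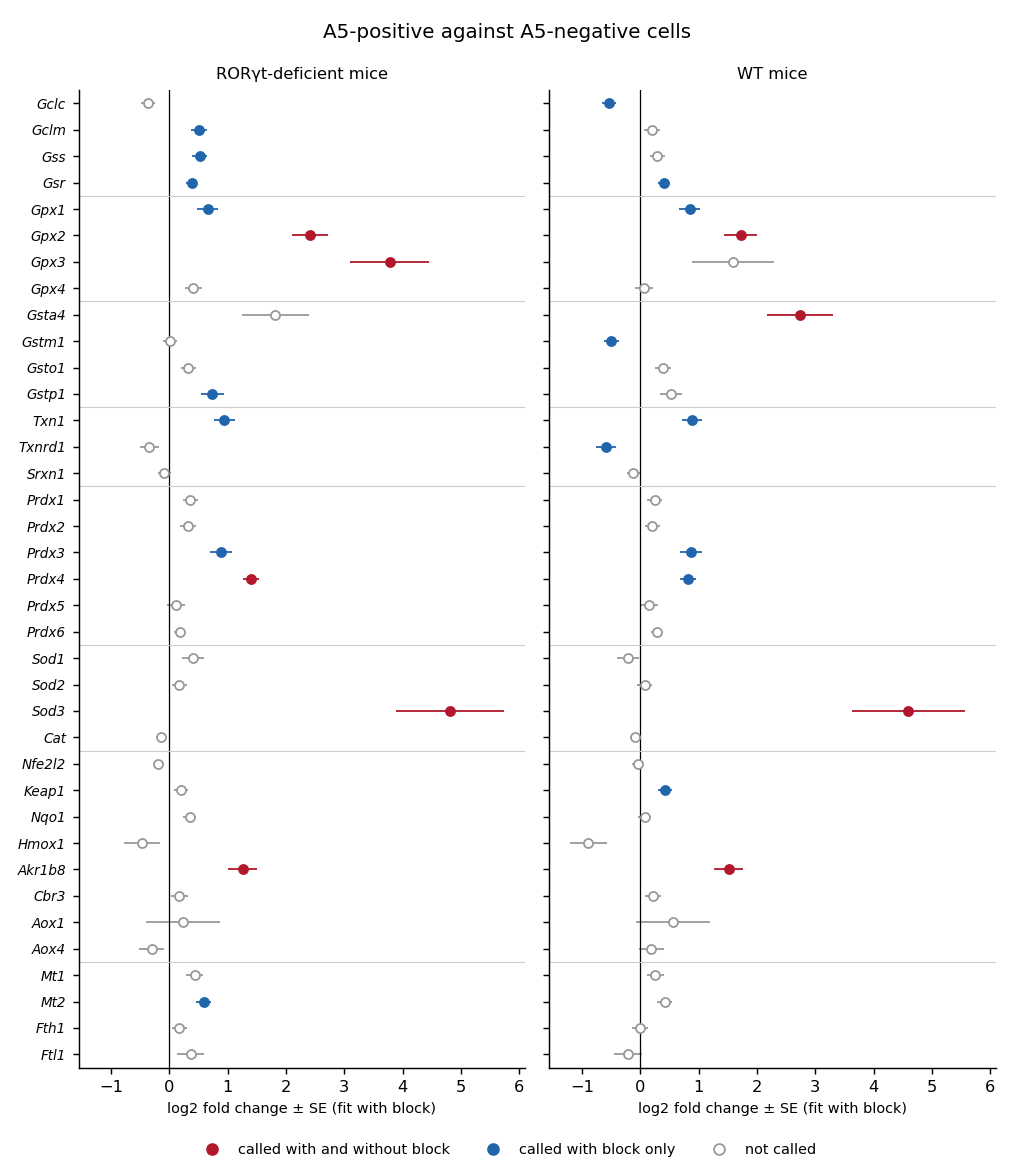
Points give the log2 fold change of A5-positive over A5-negative cells with its SE from the fit with the library number as a block, for each member and genotype; colour marks which fits passed adjusted p 0.05. Sod3, Gpx3, Gpx2 and Gsta4 lie farthest right in at least 1 genotype, and the members that fell in WT mice (Gclc, Gstm1 and Txnrd1) lie left of 0.

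RORγt-deficient mice were compared with WT mice within each fraction. In A5-positive cells 0 of 37 members passed, against 0.006% of all genes. DESeq2 gave 3 members, and its share over all genes is not given here for any comparison. Without the block, 8 members had an unadjusted p below 0.05, as did 2497 of all 16677 genes. With the block, Gpx3 and Txnrd1 rose and Aox4 fell (8.11%, against 4.02% of all genes). In A5-negative cells none passed with or without the block, against 0.006% of all genes in either fit. DESeq2 gave 5 members with the block and 1 without it. At an unadjusted p below 0.05 were 13 members with the block (2522 of all genes) and 3 without it (849 of all genes). Levels did not overlap for 7 members in A5-positive cells (18.1% of all genes) and for 6 in A5-negative cells (15.6%). Medians over the members were -0.04 and -0.21, against 0.0021 and 0.00014 over all genes. The genotype effect did not differ detectably between the fractions for any member, since 0 passed that test with or without the block. Of all genes 0% passed in both fits, and DESeq2 also gave 0 members. At an unadjusted p below 0.05 were 4 members with the block (910 of all genes) and 1 without it (458 of all genes).

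Averaged over both fractions, a comparison of 6 libraries with 6, none of the 37 members passed, against 0.054% of all genes. DESeq2 gave 5 members. Without the block, 10 members had an unadjusted p below 0.05, as did 3307 of all 16677 genes. With the block 10 passed, 27% of the members against 12.1% of all genes: Txnrd1, Gclc, Gpx3 and Mt2 rose, and Gpx2, Aox4, Nqo1, Cbr3, Keap1 and Cat fell. Of these, Txnrd1, Gpx2 and Aox4 held without each of the 12 libraries. The median over the members was -0.16, against 0.0035 over all genes. Both fractions of a genotype with the same number enter as separate libraries, although same-number libraries vary together. The block is shared by both genotypes and has no term for a genotype and number together. The 6 numbered pairs may therefore not be independent of each other, and the calls with the block may overstate the replication.

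Txnrd1 (chr10:82833951-82897712) had 315, 615 and 341 CPM in RORγt-deficient A5-positive libraries, against 140, 311 and 218 CPM in WT A5-positive ones. In A5-negative cells it had 503, 702 and 374 CPM in RORγt-deficient and 288, 408 and 280 CPM in WT libraries. It was higher in RORγt-deficient cells in 6 of 6 numbered pairs, and the averaged change was 0.80 ± 0.12 (adjusted p = 0.00792). Without the block this was 0.81 ± 0.24 (adjusted p = 0.139). Within A5-positive cells it was 0.92 ± 0.17 (adjusted p = 0.0331), a call that held only without WT A5-positive library 3. Gclc was higher in 5 of 6 pairs, at 0.39 ± 0.09 (adjusted p = 0.0199), and its call ended without RORγt-deficient A5-positive library 2, WT A5-positive library 1 or 2, or WT A5-negative library 2 (up to 0.0864).

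Aox4, an aldehyde oxidase of skin (chr1:58210397-58268597), had 3.67, 2.68 and 5.43 CPM in RORγt-deficient A5-positive libraries, against 9.32, 13 and 16.9 CPM in WT A5-positive ones. In A5-negative cells it had 3.81, 4.55 and 6.28 CPM in RORγt-deficient and 6.66, 12.3 and 16.1 CPM in WT libraries. The genotypes did not overlap in either fraction. The averaged change with the block was -1.47 ± 0.16 (adjusted p = 0.0024), and without the block -1.50 ± 0.26 (adjusted p = 0.079). Within A5-positive cells it was -1.72 ± 0.22 (adjusted p = 0.0133), a call that ended without RORγt-deficient A5-positive library 3 (0.0533) or WT A5-positive library 1 (0.0527). Gpx2, whose levels are given above, also did not overlap between genotypes in either fraction, and its averaged change with the block was -1.16 ± 0.21 (adjusted p = 0.0107), with all 6 pairs lower in RORγt-deficient mice; without the block it was -1.25 ± 0.27 (0.107).

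**Figure D4:**
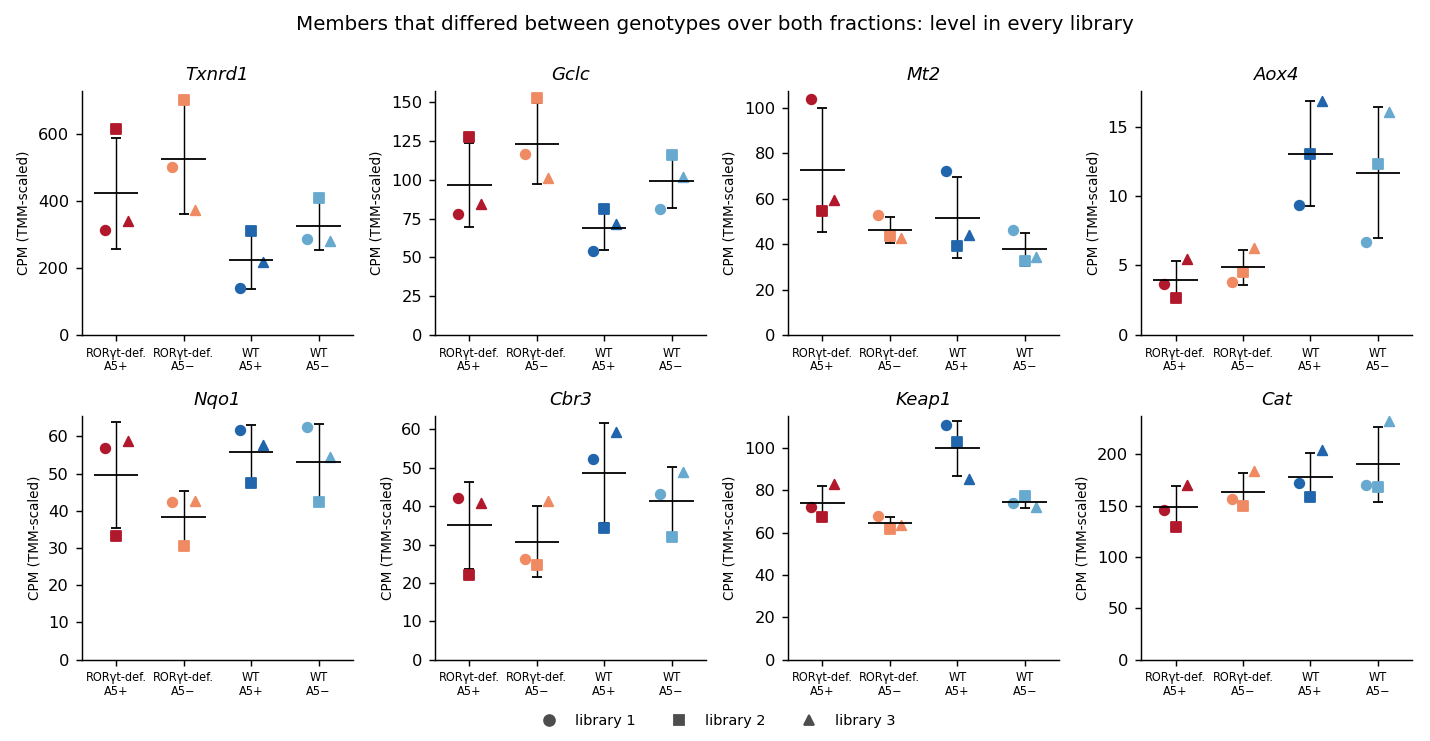
Each panel gives 1 member's level in TMM-scaled CPM in the 12 libraries, with symbols for the library number and the mean ± SD of 3 libraries in black. Txnrd1, Gclc and Mt2 have higher means in RORγt-deficient than in WT cells of the same fraction, and Aox4, Nqo1, Cbr3, Keap1 and Cat have lower ones.

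Gpx3 was higher in RORγt-deficient mice in 6 of 6 pairs, at 1.92 ± 0.47 averaged (adjusted p = 0.0273) and 3.01 ± 0.68 in A5-positive cells (adjusted p = 0.0404), both with the block. The averaged call ended without 7 of the 12 libraries (RORγt-deficient A5-positive 2 or 3, RORγt-deficient A5-negative 1, WT A5-positive 2, or WT A5-negative 1, 2 or 3; up to 0.0891). The call in A5-positive cells held only without WT A5-positive library 3, and the change there ran from 2.26 to 4.15 when libraries were left out. The fibroblast list was higher in all 3 RORγt-deficient A5-positive libraries than in the WT ones, and its part in the Gpx3 change was not tested. Mt2 was also higher in 6 of 6 pairs, at 0.40 ± 0.09 (adjusted p = 0.0222), with 72.3, 39 and 44 CPM in WT A5-positive and 46.2, 32.5 and 34.5 CPM in WT A5-negative libraries beside the RORγt-deficient values above. Its call ended without WT A5-positive library 2 or WT A5-negative library 1 or 2 (up to 0.0653).

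The other 4 members that fell did so by less than 0.5 on the log2 scale, with the block only. Cbr3, a carbonyl reductase, changed by -0.46 ± 0.10 (adjusted p = 0.0206) and was lower in 6 of 6 pairs. It had 42.3, 22 and 40.9 CPM in RORγt-deficient A5-positive and 52.2, 34.3 and 59.5 CPM in WT A5-positive libraries, and 26.4, 24.6 and 41.3 CPM in RORγt-deficient A5-negative and 43.2, 31.8 and 49 CPM in WT A5-negative libraries. Nqo1, the NRF2-driven quinone reductase, changed by -0.33 ± 0.08 (adjusted p = 0.0272) and was lower in 5 of 6 pairs. It had 56.9, 33.3 and 58.9 CPM in RORγt-deficient A5-positive and 61.8, 47.5 and 57.8 CPM in WT A5-positive libraries, and 42.3, 30.5 and 42.7 CPM in RORγt-deficient A5-negative and 62.6, 42.5 and 54.5 CPM in WT A5-negative libraries. For both genes the genotypes overlapped in each fraction. The Cbr3 call ended without RORγt-deficient A5-positive library 2 or WT A5-negative library 2 (up to 0.063), and the Nqo1 call without RORγt-deficient A5-positive library 2 or A5-negative library 1, WT A5-positive library 2, or WT A5-negative library 1 or 2 (up to 0.0725).

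Keap1 changed by -0.32 ± 0.08 (adjusted p = 0.0338), with 71.9, 67.3 and 82.8 CPM in RORγt-deficient A5-positive libraries and 67.8, 61.7 and 63.5 CPM in RORγt-deficient A5-negative libraries, each below all WT libraries of the same fraction given above. Its call held only without library 3 of RORγt-deficient or of WT A5-positive cells (up to 0.0989 otherwise). Cat changed by -0.23 ± 0.06 (adjusted p = 0.0318), with 146, 130 and 170 CPM in RORγt-deficient A5-positive and 172, 158 and 204 CPM in WT A5-positive libraries, and 156, 150 and 184 CPM in RORγt-deficient A5-negative and 170, 168 and 232 CPM in WT A5-negative libraries. It was lower in 6 of 6 pairs while the groups overlapped, and its call ended without RORγt-deficient A5-positive library 2 or 3, RORγt-deficient A5-negative library 3, WT A5-positive library 1 or 2, or WT A5-negative library 2 or 3 (up to 0.0825). Nfe2l2, which encodes NRF2, had 125 to 142 CPM in RORγt-deficient A5-positive and 125 to 144 CPM in WT A5-positive libraries, and 147 to 158 CPM in RORγt-deficient A5-negative and 128 to 147 CPM in WT A5-negative libraries. Its averaged change was 0.09 ± 0.06 with the block (adjusted p = 0.332). No other member passed a genotype test in either fit.

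**Figure D5:**
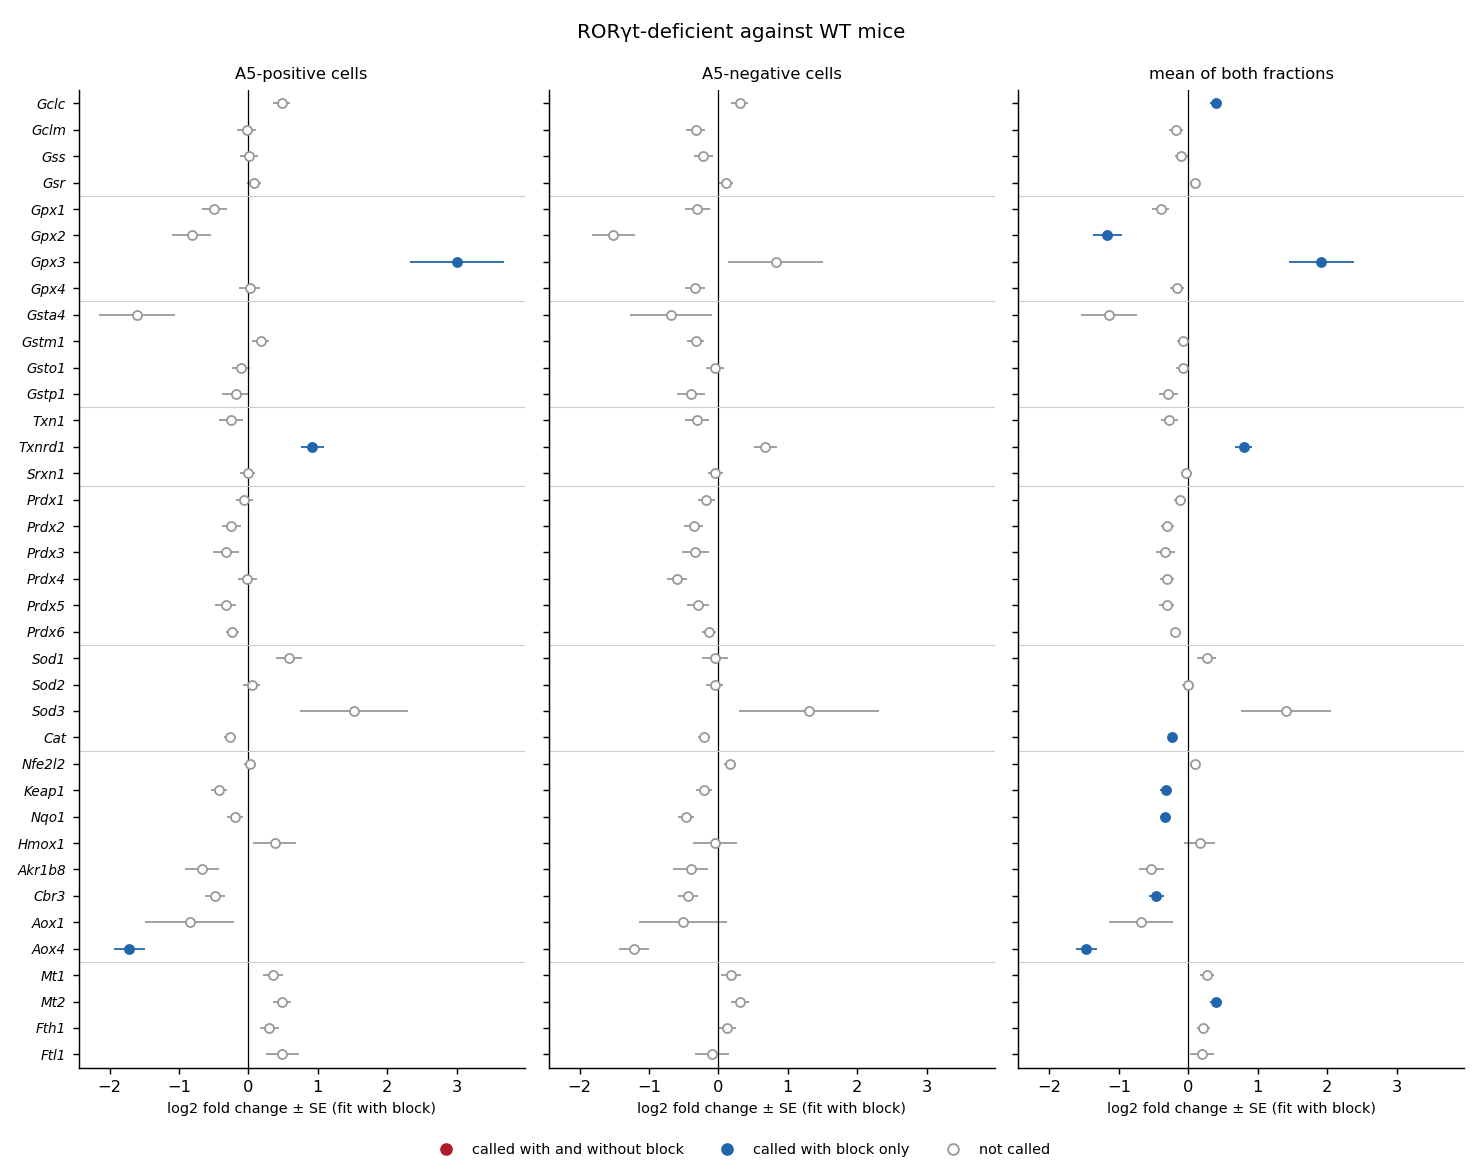
Points give the log2 fold change of RORγt-deficient over WT mice with its SE from the fit with the library number as a block, for A5-positive cells, A5-negative cells and their mean; colour marks which fits passed adjusted p 0.05. No point is red, since no member passed without the block, and Aox4 lies farthest left and Gpx3 farthest right in the averaged panel.

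Other genes of the same pathways, from lists chosen by function with earlier results of these data known, passed the test in small numbers without the block and more often with it. Of 31 further glutathione genes, 3 rose and none fell in A5-positive cells of RORγt-deficient mice, and 1 rose in WT mice, where 5.52% and 3.45% of all genes passed. Gpx7 and Gpx8, peroxidases of the endoplasmic reticulum, changed by 3.18 ± 0.50 (adjusted p = 0.00264) and 1.30 ± 0.21 (adjusted p = 0.00363) in RORγt-deficient mice, and Ggt7 by 4.62 ± 1.18 (adjusted p = 0.0416). In WT mice Glo1, glyoxalase, changed by 0.67 ± 0.16 (adjusted p = 0.0457). With the block 6 rose in RORγt-deficient mice, and 4 rose and 1 fell in WT mice, where 17.6% and 14.4% of all genes passed. Averaged over fractions, 2 rose and 2 fell in RORγt-deficient mice with the block (12.1% of all genes), among them Chac1, which degrades glutathione, at 1.35 ± 0.26 (adjusted p = 0.0134).

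Of 18 further thioredoxin-related genes, Selenom, a selenoprotein, rose in A5-positive cells of RORγt-deficient mice by 2.68 ± 0.51 (adjusted p = 0.00898). It was the only call there (5.52% of all genes), and none passed in WT mice (3.45%). With the block 4 rose and 3 fell in RORγt-deficient mice (17.6% of all genes) and 4 rose and 1 fell in WT mice (14.4%). Txnip, the thioredoxin inhibitor, fell in RORγt-deficient mice averaged over fractions by 0.66 on the log2 scale with the block (SE 0.07, adjusted p = 0.0024). Of 27 further NRF2-pathway genes, Akr1b10 rose in A5-positive cells of RORγt-deficient mice by 1.20 ± 0.31 (adjusted p = 0.0419). No other gene of the list passed there (5.52% of all genes), and none passed in WT mice (3.45%). Akr1b10 shares sequence with the member Akr1b8, which held 17231 counts over all libraries against 1859 for Akr1b10. The part of shared reads in the Akr1b10 call was not tested. With the block 2 rose and 6 fell in each genotype (17.6% of all genes in RORγt-deficient and 14.4% in WT mice), and the smallest p was that of Me1, malic enzyme, which changed by -0.85 ± 0.15 (adjusted p = 0.00374) in RORγt-deficient and -0.90 ± 0.15 (adjusted p = 0.00448) in WT mice. Averaged over fractions 6 rose and 5 fell in RORγt-deficient mice with the block (12.1% of all genes); the small MAF proteins, which pair with NRF2, were among those that rose, with Mafg at 0.53 ± 0.08 (adjusted p = 0.00892), Mafk at 0.56 ± 0.11 (0.0118) and Maff at 0.69 ± 0.13 (0.0126).

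Of 29 further metal genes, Cp, ceruloplasmin, and Slc39a14, a zinc and iron importer, rose in A5-positive cells of RORγt-deficient mice, at 2.24 ± 0.40 (adjusted p = 0.00629) and 1.21 ± 0.23 (adjusted p = 0.00935). These were the 2 calls of the list there (5.52% of all genes), and none passed in WT mice (3.45%). With the block 4 rose and 4 fell in RORγt-deficient mice (17.6% of all genes) and 3 fell in WT mice (14.4%). Ncoa4, which delivers ferritin for breakdown, rose in RORγt-deficient mice averaged over fractions by 0.30 ± 0.08 with the block (adjusted p = 0.0303), the 1 call of the list there, where 12.1% of all genes passed. Of 15 oxidant-producing genes, Duox1, which makes hydrogen peroxide, rose in A5-positive cells of both genotypes, at 0.94 ± 0.24 (adjusted p = 0.0453) in RORγt-deficient and 1.11 ± 0.24 (adjusted p = 0.0289) in WT mice, and Xdh, xanthine dehydrogenase, in WT mice at 0.92 ± 0.17 (adjusted p = 0.0126). No other gene of the list passed in RORγt-deficient (5.52% of all genes) or WT mice (3.45%). With the block 4 rose in RORγt-deficient mice (17.6% of all genes) and 3 in WT mice (14.4%), and none fell. Averaged over fractions with the block, Duox1 and its maturation factor Duoxa1 fell in RORγt-deficient mice, at -0.68 ± 0.15 (adjusted p = 0.0216) and -0.74 ± 0.20 (adjusted p = 0.0398), and Alox12b rose by 0.80 ± 0.18 (adjusted p = 0.0194). No other gene of the list passed there, where 12.1% of all genes did.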

How the data were processed

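RNA of 12 libraries was made with SMART-Seq v4 and ThruPLEX kits, per the labels' protocols. The authors deposited whole-number read counts per gene symbol, with no normalization. Per the submitters' processing notes, the tools were STAR, featureCounts, Trimmomatic 0.36 and bcl2fastq, and the build was mm10 (GRCm38); the sources used here give no annotation release, no strand setting and no rule for multi-mapping reads. Of 55341 rows, 26 had symbols turned into dates (0.110% to 0.128% of counts) and were left out. All pairs within a group differed by more than sampling noise, so no library was counted as a duplicate.

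Counts were fitted with edgeR 4.0.16 in R 4.3.3 over all genes: TMM factors, filterByExpr by group (16677 genes tested), 1 model of 4 groups, quasi-likelihood F test, Benjamini-Hochberg adjustment within each comparison, threshold 0.05. The SE of a change is its size over the square root of the F value. Levels are TMM-scaled CPM. TPM uses exon lengths of GENCODE M21, with all annotated exons of a gene joined. Copies were sought with blastn 2.17.0 (95% identity over at least 100 bases). The fits were tested on simulated data. P-values reflect how pools of mice vary, not single mice.

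Library numbers in the titles pair the libraries: in 9071 genes, deviations from the group means had r over 0.1 in each of 18 same-number pairs (0.153 to 0.722). Of 36 pairs of unlike number, 3 had r over 0.1 (up to 0.315), and the median was -0.24. That median is not separate evidence, since subtracting group means pulls it below 0 when same-number r is above 0. A fit with the number as a replicate block is therefore given wherever it changes a call. Alternatives were that block, DESeq2 1.42.0, RLE factors in place of TMM, fits of all genes or only of genes reaching 5 CPM in 3 libraries (the stricter filter), fits of the compared groups alone, and fits without 1 library at a time.

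The members and lists were chosen with earlier results of these data known. Members past the threshold in either fit are given in every library; of each pathway list up to 4 genes with the smallest p that passed are named. Some items of the marker lists and label checks are not reported here.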

Additional observations from a re-analysis of the deposited data

How the results depend on the processing

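Counts of members past the threshold moved with the setting, while no member change that passed turned its direction and no median over the members moved by more than the spread between libraries (SD 0.211). With the replicate block the counts were 13 against 5 (A5 in RORγt-deficient mice), 13 against 4 (A5 in WT), 3 against 0 (genotype in A5-positive cells) and 10 against 0 (genotype averaged). The shares of all genes rose as well in these comparisons, to 17.6%, 14.4%, 4.02% and 12.1% from 5.52%, 3.45%, 0.006% and 0.054%. DESeq2 gave 7 (A5 in WT), 3 (genotype, A5-positive), 1 (genotype, A5-negative) and 5 (averaged), and with the block 10, 5 and 16 for the last 3. Without the filter on low counts the counts were 7 (A5 in WT), 2 (genotype, A5-positive) and 4 (averaged), and with the block 12 (genotype, A5-positive) and 4 (genotype, A5-negative). RLE factors and the stricter filter, each with the block, gave 5 in the genotype comparison of A5-positive cells. The compared libraries alone gave 3 (A5 in RORγt-deficient mice), 1 (A5 in WT) and, with the block, 0 (genotype, A5-positive). Leaving out each library gave 1 to 7 and 0 to 3 for A5 in RORγt-deficient and WT mice, 0 to 1 for the averaged genotype, and with the block 6 to 16, 4 to 14, 0 to 5 (genotype, A5-positive) and 3 to 13 (averaged). For settings other than the block, shares of all genes are not given here. Their counts therefore do not show whether members moved more than other genes. The cause of these moves was not tested. At this depth Aox1 had 0.0634 to 1.25 CPM, and its A5 changes had an SE of 0.69 in RORγt-deficient and 0.68 in WT mice.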
